A study of Homo sapiens with 6 samples.

Results

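The genes described here are the Wnt ligands, their receptors, the secreted antagonists and the core regulators of the pathway. Members were chosen by gene symbol: the WNT, FZD, DKK and SFRP families, LGR4, LGR5, LGR6, ROR1, ROR2, LRP5, LRP6, RNF43, ZNRF3, AXIN1, AXIN2, CTNNB1, TCF7, TCF7L1, TCF7L2 and LEF1, without antisense genes. They are 53 of the 26255 symbols in the table, and the rule for choosing them uses no measured value. RNA was sequenced from MDA-MB-231, a human breast cancer cell line of mesenchymal character, in 2 groups of 3 libraries. Both groups carried a lentiviral short hairpin and had been kept in puromycin to select resistant cells. The shNT cells carried a control hairpin, and the cells labelled shGPR81 carried a hairpin against GPR81 (HCAR1), a lactate receptor that lowers cAMP. The study made lines with different GPR81 hairpins, and its text does not name the hairpin of the sequenced cells. Each group is treated here as a single line, which the labels do not state. With a single line per group, an effect of the hairpin and a difference between lines cannot be told apart. The comparison asks how Wnt pathway transcripts differ between the groups.

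Wnt proteins are secreted lipid-modified ligands that bind Frizzled receptors. With LRP5 or LRP6 as co-receptor they keep beta-catenin from destruction, and beta-catenin then acts with TCF and LEF factors on target genes. Other Wnt proteins act without beta-catenin, for instance through the receptors ROR1 and ROR2, and such signalling is best known for its part in cell movement. DKK1 blocks LRP5 and LRP6, SFRP proteins bind Wnt ligands, RNF43 and ZNRF3 remove Frizzled receptors from the membrane, and LGR4 to LGR6 bind R-spondins that counter this removal. AXIN2, LGR5, RNF43 and DKK1 are themselves among the known targets of beta-catenin.

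HCAR1, the target of the hairpin, was at 0.968, 1.02 and 1.36 FPKM in the shNT libraries and at 0.978, 0.891 and 0.396 FPKM in the libraries labelled shGPR81. FPKM is the number of fragments scaled to transcript length and to the mapped reads of the library. The groups overlapped. Differences below are in log2(FPKM + 0.1), labelled shGPR81 minus shNT, tested with limma and adjusted by Benjamini-Hochberg over all tested genes. For HCAR1 limma gave -0.57 with an SE of 0.31 and an adjusted p of 0.38. Its values stand for 37, 40 and 52 reads and for 40, 36 and 16 reads, which at equal depth is a ratio of 0.677 (95% interval 0.513 to 0.892 by Clopper-Pearson, for counting error only). Here and below, reads are the lowest whole numbers in the ratio of the FPKM values, and true numbers may be a multiple. The mean is lower as the label says, without passing the test, and the group is named by its label below. shGPR81 replicate 3 is the lowest library, and shGPR81 replicates 1 and 2 are near shNT replicates 1 and 2. Without shGPR81 replicate 3 the adjusted p in limma was 0.677. The defining genes of MDA-MB-231 were present, with 8 of 8 markers at a mean of at least 18 FPKM. Of 14 luminal markers, ESR1, PGR and CDH1 were listed at 0 in every library. The other 11 had a mean of at least 1 FPKM, with KRT18 at 182 to 241 FPKM and KRT8 at 132 to 185 FPKM. Of 11 tested luminal markers 2, TFF1 and TFF3, were called lower, and the summed level of the luminal list was 523 to 648 FPKM in shNT and 526 to 602 FPKM in the libraries labelled shGPR81. Of 8 fibroblast markers 4 were at 0 in every library, and of 7 blood cell markers 3 were; their summed levels were 18 to 21.2 and 79.3 to 103 FPKM in shNT and 15.8 to 17.6 and 112 to 131 FPKM in the libraries labelled shGPR81, carried by THY1 and CD68. The part of these markers in the Wnt gene values was not tested.

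Of the 53 Wnt genes, 32 reached 0.1 FPKM in 3 or more libraries and were tested, 9 had a value above 0 below this limit, and 12 were listed at 0 in every library. No Wnt gene was called lower or higher at the thresholds of the study, adjusted p below 0.05 together with more than a 1.5-fold change (0 of 32 in each direction in limma; 1.59% of the 14349 tested genes were called lower and 0.955% higher). By adjusted p alone ROR1 and DKK1 were lower, 2 of 32 genes, and 0 were higher, where 3.07% of all tested genes were lower and 2.06% higher. At an unadjusted p under 0.05 there were 11 Wnt genes, 5 lower and 6 higher (34.4%, against 19.5% of all tested genes). In 13 Wnt genes the 3 libraries of a group lay wholly above or below the 3 of the other, 7 lower and 6 higher (40.6%, against 25.6% of all tested genes). In bulk RNA, fewer cells that express a gene and less of its RNA per cell cannot be told apart. Members are few, and WNT10A passed the filter through its shNT values, so these shares describe the list only. The median log2 fold change of the 32 genes was -0.05, beside 0.01 over all tested genes, and its sign was positive after a filter of 1 FPKM (0.013), without any filter (0.013) and without shNT replicate 2 (0.002). With 3 against 3 libraries an exact two-sided permutation test of a single gene allows no p below 0.1, the value of each of the 13 genes.

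The members with the firmest difference, ROR1 and DKK1, are shown with the sequence upstream of their start sites. DKK1 was the single member with CTTTGA or TCAAAG there, a form of the letters read by TCF and LEF factors. This holds for these letters only, and among the 21 tested members whose promoters could be searched. The 250 bases before the start site are given 5′ to 3′ from RefSeq (GRCh38.p14). DKK1 lies at chr10:52314031-52314280 on the plus strand and ROR1 at chr1:63773767-63774016 on the plus strand. FZD8, at chr10:35642297-35642546 on the minus strand, is shown as the most abundant member with a higher value in every library labelled shGPR81. Capitals mark CTTTGA or its reverse complement TCAAAG (the TCF/LEF core) and TATAAA (the TATA box).
DKK1: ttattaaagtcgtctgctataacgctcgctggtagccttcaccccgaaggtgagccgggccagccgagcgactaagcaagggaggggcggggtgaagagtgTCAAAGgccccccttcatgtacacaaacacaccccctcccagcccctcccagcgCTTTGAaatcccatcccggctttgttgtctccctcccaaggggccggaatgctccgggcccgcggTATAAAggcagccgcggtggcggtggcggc
ROR1: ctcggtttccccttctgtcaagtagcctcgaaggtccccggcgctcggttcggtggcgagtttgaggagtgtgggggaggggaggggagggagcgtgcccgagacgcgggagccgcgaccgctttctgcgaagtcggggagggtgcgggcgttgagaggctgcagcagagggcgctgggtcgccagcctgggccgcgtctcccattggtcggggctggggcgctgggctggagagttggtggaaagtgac
FZD8: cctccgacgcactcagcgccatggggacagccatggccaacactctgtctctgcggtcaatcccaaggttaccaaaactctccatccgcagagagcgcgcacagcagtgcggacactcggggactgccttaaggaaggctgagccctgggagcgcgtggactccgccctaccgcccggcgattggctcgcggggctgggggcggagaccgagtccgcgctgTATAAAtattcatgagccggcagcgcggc

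In DKK1 the TCF/LEF core begins at base -149 on the minus strand and at -95 on the plus strand relative to the gene, and the TATA box at -30. In FZD8 the TATA box begins at -29. A search of the windows from 250 bases before to 50 after the start, on both strands, covered 28 promoters of 21 tested members; 11 tested members had no entry. The TCF/LEF core was in 1 of the 28, that of DKK1, and in 12.9% of all 35116 promoters. Only CTTTGA and its reverse complement were searched for this core. CTTTGT was not searched. It stands unmarked in the DKK1 sequence above and also in the bases upstream of FZD1 and RNF43. That DKK1 was the single member therefore holds for the searched form only. TGACG, the core of the cAMP response element, was in 3 of the 28 (CTNNB1, TCF7L2 and WNT5B) and in 24.6% of all promoters, and the whole element TGACGTCA was in 0 of the 28 and in 1.85% of all. TATAAA was in 4 of the 28 (TCF7, FZD8, DKK1 and WNT5B) and in 11.5% of all. These are letters in a window, and nothing was measured of binding.

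**Figure D1:**
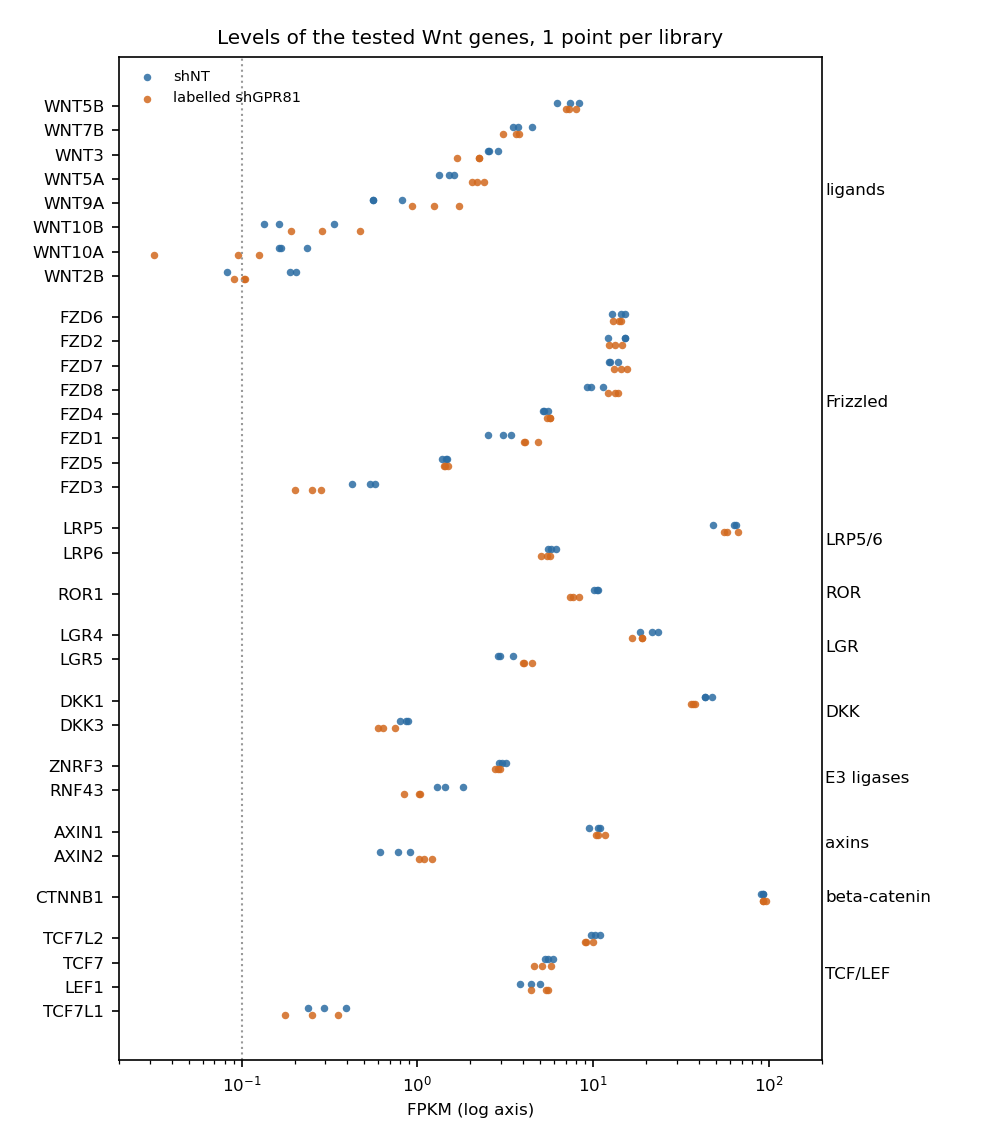
FPKM of the 32 tested Wnt genes on a log axis, 1 point per library, with shNT in blue and the libraries labelled shGPR81 in orange, grouped by role; the dotted line marks the filter of 0.1 FPKM. CTNNB1, LRP5 and DKK1 are the most abundant genes, and the points of the groups lie apart for 13 genes.

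Among the 19 Wnt ligands, WNT5B was the most abundant at 7.30 ± 1 FPKM (SD, n = 3) in shNT and 7.44 ± 0.549 FPKM in the libraries labelled shGPR81. It was at 6.27, 8.27 and 7.36 FPKM in shNT and at 7.30, 6.97 and 8.04 FPKM in the other group. The groups overlapped, and the 95% interval of the fold change was 0.851 to 1.23. WNT7B was next, at 3.48, 3.72 and 4.51 FPKM in shNT and at 3.07, 3.79 and 3.62 FPKM in the libraries labelled shGPR81. Its groups overlapped too, with a fold change of 0.899 (95% interval 0.727 to 1.11).

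WNT5A and WNT9A had higher values in every library labelled shGPR81. WNT5A, the best known ligand of signalling without beta-catenin, lies on chromosome 3 (GRCh37, 55499743 to 55524567, minus strand). It was at 1.51, 1.32 and 1.62 FPKM in shNT and at 2.39, 2.05 and 2.18 FPKM in the libraries labelled shGPR81. In limma it differed by 0.55 log2 units, with an SE of 0.13 and an adjusted p of 0.0584, a fold change of 1.46 (95% interval 1.19 to 1.80). Adjusted p was 0.0469 at a pseudocount of 1 and up to 0.211 when a library was left out. WNT9A, on chromosome 1 (228106357 to 228135633, minus strand), was at 0.562, 0.822 and 0.561 FPKM in shNT and at 1.25, 0.930 and 1.73 FPKM in the libraries labelled shGPR81. These values stand for 8, 12 and 8 reads and for 19, 14 and 26 reads, so the level rests on few reads and shGPR81 replicate 3 is the highest. Its fold change was the largest rise in value among the ligands, 1.84 (95% interval 1.23 to 2.77), with an adjusted p of 0.101 (limma).

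WNT3, a ligand that acts through beta-catenin, had lower values in every library labelled shGPR81. It was at 2.88, 2.56 and 2.51 FPKM in shNT and at 2.24, 1.68 and 2.24 FPKM in the other group, from 125, 114 and 109 reads and from 104, 77 and 103 reads. On the log2 scale limma gave -0.36 (SE 0.14) at an adjusted p of 0.218, and shGPR81 replicate 2 lay below the others. WNT10A also did not overlap, on 7, 5 and 5 reads against 4, 3 and 1 reads; at equal depth the ratio of reads was 0.447, with a 95% interval (Clopper-Pearson, counting error only) of 0.167 to 1.09. WNT10B and WNT2B overlapped between the groups, at means of 0.211 and 0.159 FPKM in shNT and 0.315 and 0.0997 FPKM in the libraries labelled shGPR81. Exons of ST7L lie opposite 21.5% of the exon bases of WNT2B, and the counting is not stated to use strand.

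The total of the ligands was similar in the groups while its make-up differed in value. Summed over the 19 ligands the level was 15.4, 17.3 and 17.4 FPKM in shNT and 17.1, 16.0 and 18.2 FPKM in the libraries labelled shGPR81. WNT5B made up 43.7% ± 3.67 of this sum in shNT and 43.5% ± 0.822 in the libraries labelled shGPR81 (SD, n = 3). WNT5A made up 8.92% ± 1.16 and 12.9% ± 0.997, and WNT3 16% ± 2.38 and 12% ± 1.34. In shNT the order of the ligands was WNT5B, WNT7B, WNT3, WNT5A and WNT9A, each without overlap with the next. In the libraries labelled shGPR81 WNT3 and WNT5A overlapped and their means, 2.05 and 2.21 FPKM, stood in the opposite order. Of the other ligands, WNT11 was at 0 to 0.211 FPKM, WNT1, WNT4, WNT8B and WNT16 had a value above 0 in 1 or 2 libraries, and WNT2, WNT3A, WNT6, WNT7A, WNT8A and WNT9B were listed at 0 in all 6.

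Of the 10 Frizzled receptors, 8 were tested and FZD9 and FZD10 were listed at 0. FZD2, FZD6 and FZD7 were the most abundant. FZD2 was at 12.2, 15.2 and 15.2 FPKM in shNT and at 13.4, 12.3 and 14.6 FPKM in the libraries labelled shGPR81, and the 95% interval of its fold change was 0.797 to 1.13. FZD6 was at 14.4, 15.2 and 12.8 FPKM and at 14.1, 14.5 and 12.9 FPKM, with an interval of 0.856 to 1.12. Both overlapped between the groups, and so did FZD7, FZD4 and FZD5, whose shNT means were 12.9, 5.33 and 1.44 FPKM and whose fold changes were 1.11, 1.05 and 1.01. Exons of PRSS23 lie opposite 18.9% of the exon bases of FZD4, and the counting is not stated to use strand.

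FZD1 and FZD8 had higher values in every library labelled shGPR81 and FZD3 had lower ones. FZD1, on chromosome 7 (90893748 to 90900641, plus strand), was at 2.54, 3.06 and 3.43 FPKM in shNT and at 4.85, 4.07 and 4.12 FPKM in the libraries labelled shGPR81. These stand for 145, 179 and 196 reads and for 297, 246 and 249 reads. By limma the difference was 0.52 in log2 units, SE 0.13, with adjusted p = 0.0758. Of the 6820 stretches of 75 bases in the longest FZD1 transcript, 7 also occur in FZD2, so reads shared with this paralog are few. FZD8, on chromosome 10 (35927175 to 35931224, minus strand), was at 9.25, 9.71 and 11.4 FPKM in shNT and at 13.3, 12.1 and 13.8 FPKM in the libraries labelled shGPR81. limma put the log2 difference at 0.37, with SE 0.10 and adjusted p = 0.0775, with an adjusted p of 0.0396 without shNT replicate 3 and 0.246 without shGPR81 replicate 1. FZD3, a receptor known for planar cell polarity, was at 0.573, 0.422 and 0.535 FPKM in shNT and at 0.200, 0.284 and 0.253 FPKM in the libraries labelled shGPR81. Its difference was -0.82 in log2(FPKM + 0.1), with an SE of 0.22 and an adjusted p of 0.0866 in limma.

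The order of the Frizzled receptors in shNT was FZD2, FZD6, FZD7, FZD8, FZD4, FZD1, FZD5 and FZD3, where FZD2 overlapped with FZD6 and FZD6 with FZD7. In the libraries labelled shGPR81 the mean of FZD7, 14.4 FPKM, was the highest, those of FZD6 and FZD2 followed, and FZD8 overlapped with FZD7. FZD8 made up 16.4% ± 1.26 of the summed Frizzled level in shNT and 19.7% ± 0.579 in the libraries labelled shGPR81 (SD, n = 3). The sum itself was 58.2, 63.0 and 63.9 FPKM in shNT and 67.2, 63.4 and 68.5 FPKM in the libraries labelled shGPR81.

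The co-receptors of beta-catenin signalling overlapped between the groups. LRP5 was at 48.0, 63.4 and 64.9 FPKM in shNT and at 55.9, 57.7 and 66.8 FPKM in the libraries labelled shGPR81, and shNT replicate 1 was the lowest of the 6. Its fold change was 1.03 (95% interval 0.841 to 1.26). LRP6 was at 6.19, 5.76 and 5.51 FPKM and at 5.08, 5.67 and 5.44 FPKM, a fold change of 0.928 (95% interval 0.809 to 1.06). LRP5 was 10.2 ± 2.13 times as abundant as LRP6 in shNT and 11.1 ± 1.06 times in the libraries labelled shGPR81 (ratio of FPKM, SD, n = 3). This pair and the other ratios below were chosen after the values were seen and are given without a test.

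ROR1, a receptor tyrosine kinase family member that binds WNT5A, was lower in the libraries labelled shGPR81. It lies on chromosome 1 (GRCh37, 64239688 to 64647181, plus strand). ROR1 was at 10.6, 10.5 and 10.1 FPKM in shNT and at 7.38, 7.71 and 8.29 FPKM in the libraries labelled shGPR81, and the groups were well apart. In limma it differed by -0.41 log2 units, with an SE of 0.07 and an adjusted p of 0.0184, a fold change of 0.752 (95% interval 0.670 to 0.844), which does not reach 1.5-fold. Adjusted p was 0.0284, 0.0429 and 0.0418 without shNT replicate 1, shNT replicate 3 and shGPR81 replicate 3. It was 0.0929, 0.0914 and 0.0913 without shNT replicate 2, shGPR81 replicate 1 and shGPR81 replicate 2. The log2 difference stayed between -0.46 and -0.37 in all 14 alternative settings. ROR2 was listed at 0 in all 6 libraries. The ratio of WNT5A to ROR1 was 0.143, 0.125 and 0.160 in shNT and 0.324, 0.267 and 0.263 in the libraries labelled shGPR81. That the ratios do not overlap follows from WNT5A and ROR1 each lying apart, in opposite directions, and adds nothing to them.

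**Figure D2:**
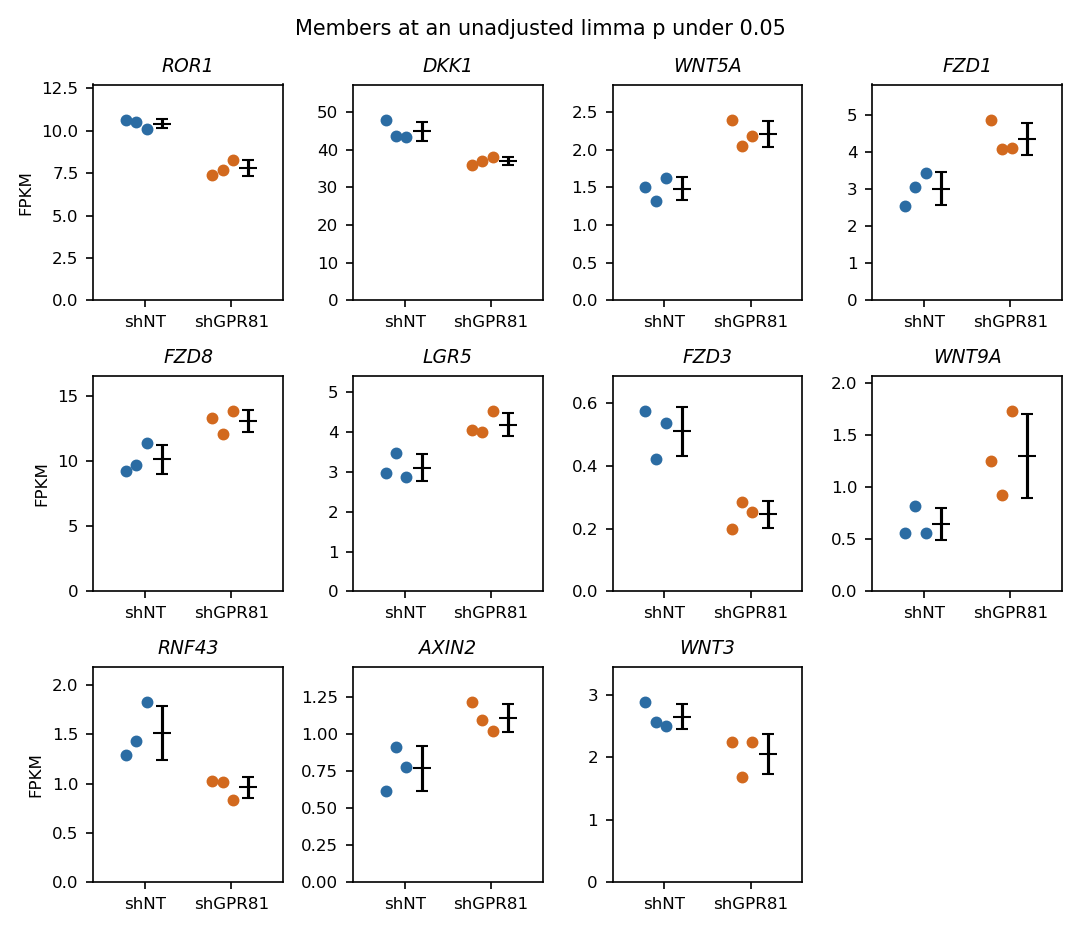
FPKM (linear axes from 0) of the 11 Wnt genes at an unadjusted p under 0.05 in limma, 1 point per library, with the mean and SD (n = 3) beside the points; shNT in blue and the libraries labelled shGPR81 in orange. The groups lie apart in all 11 panels, with ROR1 and DKK1 the genes with an adjusted p under 0.05.

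DKK1, which binds LRP5 and LRP6 and blocks them, was the most abundant secreted antagonist and was lower in the libraries labelled shGPR81. The gene lies on chromosome 10 (GRCh37, 54074041 to 54077802, plus strand). It was at 47.7, 43.6 and 43.2 FPKM in shNT and at 35.9, 36.9 and 38.0 FPKM in the libraries labelled shGPR81. On the log2 scale limma gave -0.28 (SE 0.06) at an adjusted p of 0.0358, a fold change of 0.825 (95% interval 0.752 to 0.905). Adjusted p was 0.0303 without shNT replicate 1, the highest of the shNT libraries. It was 0.107 without shNT replicate 2, 0.0548 without shNT replicate 3, and 0.159, 0.140 and 0.0933 without shGPR81 replicate 1, 2 and 3. Over the alternatives the log2 difference was between -0.30 and -0.23. Exons of PRKG1-AS1 lie opposite 10.2% of the exon bases of DKK1.

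DKK1 made up 98.1% ± 0.0775 of the summed DKK level in shNT and 98.2% ± 0.129 in the libraries labelled shGPR81 (SD, n = 3). DKK3, a family member not known to act on LRP6 as DKK1 does, was at 0.887, 0.865 and 0.794 FPKM in shNT and at 0.600, 0.636 and 0.751 FPKM in the other group. These stand for 29, 29 and 26 reads and for 21, 22 and 26 reads, and limma gave -0.32 log2 units (SE 0.16) with an adjusted p of 0.342. Exons of USP47 lie opposite 47.5% of the annotated exon bases of DKK3, and the counting is not stated to use strand, so reads of the genes may not be told apart. DKK2 had a value in 1 library (0.0395 FPKM in shGPR81 replicate 1) and DKK4 was at 0. The SFRP antagonists were near absent: SFRP1 and SFRP2 were listed at 0, SFRP4 was at 0.0262 FPKM in shNT replicate 3 and at 0 elsewhere, and SFRP5 was at 0.0409 FPKM in shGPR81 replicate 2 and at 0 elsewhere. At values this low no difference was detectable.

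The R-spondin receptors LGR4 and LGR5 stood in opposite directions in value. LGR5, a stem cell marker in the gut, lies on chromosome 12 (71833578 to 71980090, plus strand) and was at 2.96, 3.48 and 2.86 FPKM in shNT and at 4.04, 4 and 4.51 FPKM in the libraries labelled shGPR81. The groups did not overlap, and limma put the difference at 0.42 log2 units (SE 0.11) with an adjusted p of 0.0784. LGR4 was at 23.5, 21.6 and 18.4 FPKM in shNT and at 19, 18.9 and 16.6 FPKM in the other group, and these overlapped (limma, log2 difference -0.21, SE 0.10, adjusted p = 0.299). LGR4 was 6.86 ± 0.930 times as abundant as LGR5 in shNT and 4.37 ± 0.597 times in the libraries labelled shGPR81 (SD, n = 3). LGR6 was seen in 2, 1 and 2 reads in shNT and in 0, 1 and 0 reads in the libraries labelled shGPR81, below the filter.

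RNF43 had lower values in every library labelled shGPR81, and ZNRF3, which acts on the same receptors, overlapped. RNF43, on chromosome 17 (56431037 to 56494956, minus strand), was at 1.29, 1.43 and 1.82 FPKM in shNT and at 1.03, 1.02 and 0.837 FPKM in the libraries labelled shGPR81. By limma the difference was -0.60 in log2 units, SE 0.17, with adjusted p = 0.103, with an adjusted p of 0.0711 without shNT replicate 1 and 0.265 without shGPR81 replicate 3. Annotated genes on the same strand cover 68.4% of its exon bases, so reads may be split between them. ZNRF3 was at 2.92, 3.05 and 3.20 FPKM in shNT and at 2.89, 2.78 and 2.95 FPKM in the other group, a fold change of 0.943 (95% interval 0.811 to 1.1). The ratio of ZNRF3 to RNF43 was 2.05 ± 0.255 in shNT and 3.02 ± 0.444 in the libraries labelled shGPR81 (SD, n = 3).

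AXIN2, the feedback inhibitor most often used as a readout of beta-catenin activity, had higher values in every library labelled shGPR81. It lies on chromosome 17 (63524681 to 63557766, minus strand) and was at 0.612, 0.914 and 0.774 FPKM in shNT and at 1.21, 1.09 and 1.02 FPKM in the libraries labelled shGPR81. These stand for 34, 52 and 43 reads and for 72, 64 and 60 reads, which is 1.44 times as many at equal depth (95% interval 1.15 to 1.82 by Clopper-Pearson, counting error only). limma put the log2 difference at 0.49, with SE 0.18 and adjusted p = 0.188, and adjusted p was not below 0.156 in any alternative. Of the 4186 stretches of 75 bases in its longest transcript, 1245 also occur in an overlapping annotated gene. AXIN1, the constitutive partner in the destruction complex, was at 9.53, 10.6 and 11.0 FPKM in shNT and at 10.7, 10.4 and 11.7 FPKM in the other group. Its groups overlapped, with a fold change of 1.06 (95% interval 0.927 to 1.2).

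Beta-catenin and the factors it acts with overlapped between the groups. CTNNB1, which encodes beta-catenin, was the most abundant Wnt gene at 89.8, 92.8 and 92.9 FPKM in shNT and 93.2, 92.7 and 96.6 FPKM in the libraries labelled shGPR81. Its fold change was 1.02, and the 95% interval of 0.954 to 1.1 was the narrowest of the tested members. TCF7L2 was the most abundant of the TCF and LEF factors, at 9.71, 11.0 and 10.3 FPKM in shNT and at 9.07, 10 and 8.94 FPKM in the other group (fold change 0.907, 95% interval 0.797 to 1.03). TCF7 was at 5.52, 5.93 and 5.30 FPKM and at 4.61, 5.76 and 5.11 FPKM (fold change 0.923, 95% interval 0.782 to 1.09). LEF1 had means of 4.42 and 5.12 FPKM and TCF7L1 of 0.309 and 0.260 FPKM, and the groups of all 4 factors overlapped.

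**Figure D3:**
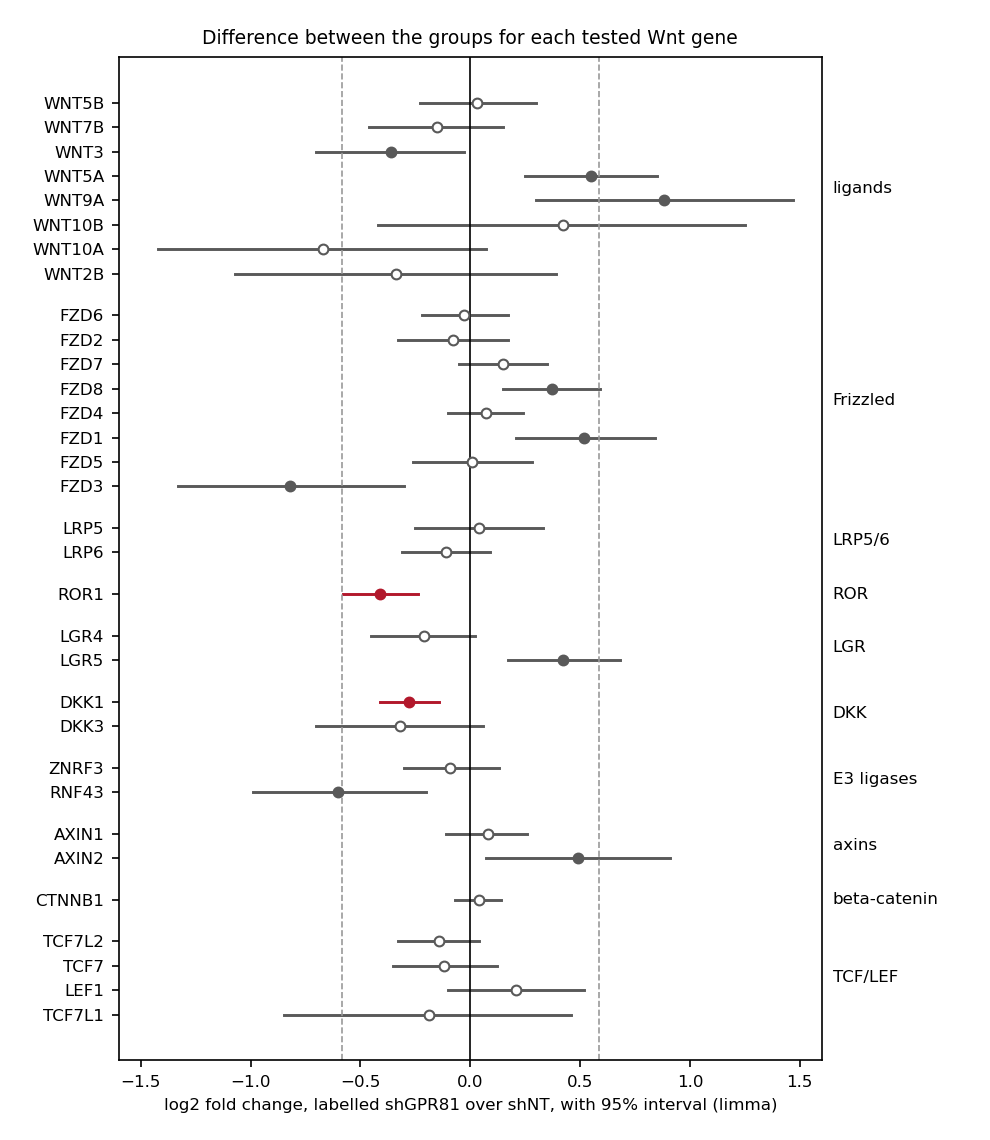
Log2 fold change of each tested Wnt gene (labelled shGPR81 over shNT) with its 95% interval from limma, grouped by role; filled points have an unadjusted p under 0.05, red marks an adjusted p under 0.05, and dashed lines mark a 1.5-fold change. ROR1 and DKK1 are red on the lower side inside the dashed lines, and the interval of CTNNB1 around 0.04 is the narrowest.

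Of the 4 targets of beta-catenin named above, DKK1 was lower by adjusted p. The other 3 did not pass it, with values in every library labelled shGPR81 that were higher for AXIN2 and LGR5 and lower for RNF43. These 4 are not a full list of the targets among the members. ZNRF3, LEF1 and TCF7, for instance, overlapped between the groups, with fold changes of 0.943, 1.16 and 0.923.

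Set against all tested genes of the same level, FZD1 and FZD8 lay above the central 95% and the other 30 tested members inside it. These are 2 of 32 members (6.25%), where 5% of all genes lie outside such a band by construction. For genes with a mean of 3 to 10 FPKM the central 95% of log2 fold changes was -0.55 to 0.49, and for 10 to 30 FPKM it was -0.39 to 0.36. DKK1, at a mean of 30 to 100 FPKM, lay inside the range of -0.38 to 0.34. FZD1 (0.52) and FZD8 (0.37) passed their upper limits by little. Over the alternatives their values lay on either side of these limits (0.41 to 0.62 and 0.31 to 0.46). The limits are those of the fit reported and were not computed anew for the alternatives, so these ranges do not show whether the genes leave the band.

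**Figure D4:**
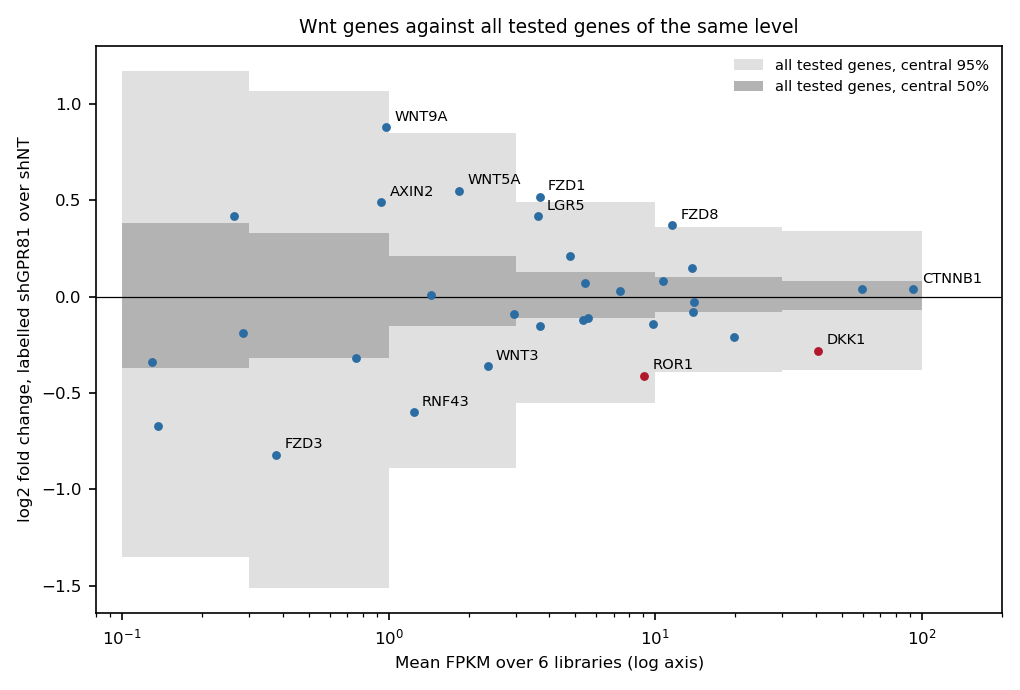
Log2 fold change of the tested Wnt genes (points; red for an adjusted p under 0.05) against their mean FPKM over the 6 libraries on a log axis; grey bands hold the central 50% and 95% of all tested genes in 6 bins of level. FZD1 and FZD8 lie just above the outer band, and the other points lie within it.

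The rest of the pathway was read from lists of genes that are no members. Of 96 tested genes 3 were called lower (3.12%), KREMEN1, JAG1 and DAAM2, and 1 higher (1.04%), TSPAN12, beside 1.59% and 0.955% of all tested genes. The share called higher is about that of all genes. The share called lower rests on 3 genes and describes these lists only. Of the 3, DAAM2 passed the filter through its shNT values and JAG1 lies on chromosome 20, as given below. Calls fell in 4 of the 7 lists. They were KREMEN1 among 5 tested modulators, TSPAN12 among 7 tested receptors, JAG1 among 18 tested target genes and DAAM2 among 27 tested genes of planar cell polarity. There were 0 calls among 5 genes of Wnt secretion, 21 cytoplasmic genes and 15 nuclear cofactors. At an unadjusted p under 0.05 in limma were 1, 3 and 2 genes of these lists, and 2 modulators, 2 receptors, 7 target genes and 4 genes of planar cell polarity. That is 21 of the 96 genes (21.9%), near the 19.5% of all tested genes. The most abundant gene of each list, TMED2, TNFRSF19, RYK, PPP2CA, HDAC1, CD44 and RHOA, was not called. CD44, an adhesion receptor listed as a target, was nearest, at -0.20 log2 units (SE 0.05) and an adjusted p of 0.0566 in limma.

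KREMEN1, a receptor that binds DKK1 and removes LRP6 from the membrane with it, was at 3.77, 4.10 and 4.45 FPKM in shNT and at 1.87, 2.5 and 2.19 FPKM in the libraries labelled shGPR81. It fell by 0.88 on the log2 scale (SE 0.13, adjusted p = 0.0103, limma). It was not called without shNT replicate 2 (adjusted p = 0.0565) or with limma's treat. TSPAN12, a tetraspanin that works with FZD4 in norrin signalling, was at 2.21, 2.13 and 2.24 FPKM in shNT and at 3.33, 3.58 and 3.55 FPKM in the libraries labelled shGPR81. It rose by 0.64 on the log2 scale (SE 0.09, adjusted p = 0.00952, limma), and was not called without shNT replicate 2 (0.0538), without shGPR81 replicate 2 (0.0578), at a pseudocount of 1, where its change was under 1.5-fold, or with limma's treat. FZD4 itself was at 5.33 ± 0.172 FPKM in shNT and 5.60 ± 0.111 FPKM in the other group.

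DAAM2, a formin linked to Wnt signalling and actin, was at 0.824, 0.946 and 0.775 FPKM in shNT and at 0.136, 0.0573 and 0.0573 FPKM in the libraries labelled shGPR81. In limma it differed by -2.39 log2 units, with an SE of 0.25 and an adjusted p of 0.00264. The size ranged from -3.30 to -0.77 with the pseudocount. DAAM2 passed the filter of 0.1 FPKM through its shNT values, so its call depends on the group where it is high. The filter of 1 FPKM removed it. JAG1, a Notch ligand listed here as a beta-catenin target, was at 43.3, 44 and 43.3 FPKM in shNT and at 23.9, 23.5 and 23.4 FPKM in the libraries labelled shGPR81. It fell by 0.88 on the log2 scale (SE 0.05, adjusted p = 0.000294, limma). JAG1 lies on chromosome 20, where the median log2 fold change over the 253 genes averaging 5 FPKM or more was -0.40, and the difference of JAG1 from that median was -0.48 on the log2 scale. DAAM2 and JAG1 were called in each of the 6 fits without 1 library. Of the 53 Wnt genes 0 lie on chromosome 20.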

How the data were processed

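RNA libraries (TruSeq stranded mRNA) were sequenced by the authors in single-end runs of 75 bases. The methods name hg19 as the genome for mapping, while the deposited description names mm10; the table holds human symbols. The submitters' processing notes list TopHat2 2.0.13, Bowtie2 2.2.3, SAMtools 0.1.19 and Cuffnorm 2.2.1. The annotation and the use of strand in counting are not given in the sources used here. The deposited values are the authors' FPKM, 1 per symbol and library, with column sums of 876963 to 1003519.

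The groups were compared in limma 3.58.1 on log2(FPKM + 0.1) (lmFit, eBayes with trend) under R 4.3.3, on the 14349 genes that reached 0.1 FPKM in 3 or more libraries, without a block, with Benjamini-Hochberg adjustment over all of them. Fold changes are on this scale and understate low genes. Fits and read recovery were tested on simulated data. Members, lists and tests were chosen with earlier results of these data known. The text gives each member with an unadjusted p under 0.05 and the most abundant members of each role with every library. Of the other pathway genes it names those called and the most abundant of each list.

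Read numbers were solved as the lowest integers whose ratios match those of a gene's FPKM (tolerance 0.0001 of the value, 5271 of 15931 genes with values in at least 3 libraries). The true numbers may be a multiple of these. They give relative depths of 1.000 to 1.071. Between replicates of a group, chi-square per gene was 2.62 to 4.12, and about 1 is what counting noise gives, so no library was taken for a copy of another. The labels do not say that replicates came from separate cultures, so p-values measure only the spread between these libraries. Intervals from reads are at 95%. Positions and shared stretches are from GENCODE 44 lifted to GRCh37, the build of hg19, and all 53 members were matched; promoters are from RefSeq.

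The libraries with the same replicate number were not taken as pairs. Alternatives were median centring, quantile normalization, a filter of 1 FPKM or none, pseudocounts of 1 and 0.01, limma's treat, the replicate number as a block, and leaving out each library.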

Additional observations from a re-analysis of the deposited data

How the results depend on the processing

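No Wnt gene was called under any of the 14 alternatives in limma (0 lower and 0 higher), and 28 of the 32 tested members kept the sign of their difference in each setting that tested them; FZD5, FZD6, LRP5 and WNT5B, all overlapping between the groups, did not. DKK3, FZD3, TCF7L1, WNT10A, WNT10B, WNT2B and WNT9A were tested in 13 of the 14, since the filter of 1 FPKM removed them. Counting members by adjusted p alone was chosen after seeing the data. By that count, 2 members were lower in the fit reported, 1 (ROR1) after quantile normalization, 0 with limma's treat against a 1.5-fold change, and 0 to 2 with a library left out; 1 was higher at a pseudocount of 1 (WNT5A), and 0 to 1 with a library left out (FZD8 without shNT replicate 3). With the replicate number as a block 1 member was lower (ROR1) and 0 were higher. For same-numbered libraries the deviations from the group means had an r of 0.120, 0.0223 and 0.00577 over genes. For libraries of different number r was -0.103 to 0.0834. These values are small, and whether the numbers pair the libraries was not tested. The median log2 fold change of the tested members was 0.013 with a filter of 1 FPKM and 0.013 without a filter, and -0.085 to 0.002 with a library left out. Over all genes, 142 were lower and 75 higher at a pseudocount of 1, 46 and 9 with treat, and 121 to 256 lower and 65 to 152 higher with a library left out. Of the other pathway genes, 0 were higher at a pseudocount of 1 and 0 with treat, where TSPAN12 was lost. With treat 2 were lower, where KREMEN1 was lost, and 2 with a filter of 1 FPKM, which removed DAAM2. With a library left out 0 to 1 were higher and 2 to 4 lower. The cause of these shifts was not tested, and fits without 1 library also rest on fewer libraries. Depth limits WNT9A, WNT10A, WNT10B, WNT11, TCF7L1 and LGR6, with solved read numbers of up to 26 per library that true numbers may exceed, and the SFRP genes, which were near 0 FPKM.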
